A study of Mus musculus with 18 samples.

Results

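The 116 genes described here encode the chaperones that fold proteins in mouse cells and the subunits of the proteasome that degrades them, and their nascent transcription was followed through activation of the kinase ERK in embryonic stem cells with and without Med24. Members were taken by gene symbol: heat shock proteins (Hspa, Hspb, Hspd, Hspe, Hsph and Hsp90), J proteins (Dnaja, Dnajb and Dnajc), subunits of the CCT chaperonin and proteasome genes (Psma to Psme), without pseudogenes and with at least 10 counts in at least 3 libraries. Of the 25897 genes in the table, 127 matched by letters and 116 passed the minimum. All 116 were among the 14128 genes tested. Of the 11 left out, Dnajb3, Psme2b, Hspb3 and Dnajb7 were at 0 in every library, Psmb9 reached 7 counts in its highest library, and Dnajc5b and Hspb7, just outside the minimum, had 1 library each with at least 10 counts. Just inside it, Hspb9 and Dnajc25 had 7 such libraries each. Since a weak gene can pass through the group in which it is high, the members that passed are not all genes of these families, and 4 members (Hspbp1, Hspbap1, Hspb11 and Psmc3ip) match only by letters and have other roles.

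HSP70 proteins bind exposed stretches of unfolded chains and release them when ATP is exchanged. J proteins deliver the chains and trigger ATP hydrolysis, whereas HSP110 proteins act as exchange factors. HSP90 completes the folding of kinases and receptors, and the CCT ring encloses actin, tubulin and other proteins while they fold. The proteasome consists of a barrel of alpha and beta subunits, the beta subunits carrying the cutting sites, and a cap that recognizes ubiquitin-tagged proteins through non-ATPase subunits and unfolds them with a ring of ATPases. In the endoplasmic reticulum (ER), Hspa5 (BiP), Hsp90b1 (GRP94) and the J proteins Dnajb9, Dnajb11 and Dnajc3 serve secreted and membrane proteins. Heat shock factor 1 drives many cytosolic chaperone genes under stress, and the unfolded protein response drives the ER set.

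The cells were E14tg2a embryonic stem cells of strain 129SV without their own Med24 gene, to which a FLAG-tagged Med24 cDNA under a doxycycline-regulated promoter had been added. Med24 belongs to Mediator, a large assembly through which transcription factors act on RNA polymerase II. Cells kept with 500 nM doxycycline express the cDNA and are labelled WT. They are called rescued cells here. Cells passaged without doxycycline are labelled KO and are called knockout cells, so that doxycycline and Med24 cannot be told apart. All cells carry a cRAF-ErT2 fusion, a kinase switched on by 4-hydroxytamoxifen (4OHT) that activates ERK. They were grown in serum and LIF with 2 µM Chir99021, then for 24 h in serum and LIF with 250 nM PD173074, which blocks FGF receptors, before 250 nM 4OHT was given for 0, 2 or 8 h. No library at 0 h had 4OHT, and every library at 2 and 8 h had it. ERK activation, 4OHT itself and elapsed time thus cannot be told apart. Cells were then given 5 mM ethynyl uridine for 15 min, and the RNA that had taken it up, the nascent RNA, was captured. Each of the 6 groups (rescued or knockout, at 0, 2 or 8 h) holds 3 libraries, from clones A, B and C. The labels do not say whether a letter marks the same clone in different groups, nor whether cultures were separate, so p-values measure the spread between these libraries. Levels are counts per 1000000 counts (CPM), scaled by the trimmed mean of M values (TMM), and those of a group are given in the order of clones A, B and C. No spike-in is named, so a change is measured against the remaining genes of the same library, and less RNA per cell and fewer cells cannot be told apart.

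Libraries held 6691177 to 14541145 counts, of which the 116 members took 1.06 to 1.35%. Med24 checked the labels: it was at 34.0 to 49.2 CPM in the 9 knockout libraries and at 400 to 1775 CPM in the 9 rescued ones. In rescued cells Med24 also changed with time. Its log2 fold change there was 1.58 at 2 h and -0.44 at 8 h against 0 h, and -2.02 from 2 to 8 h. The knockout values were 0.25, 0.03 and -0.23. The part of this change in the rescued time courses and in the differences between the kinds of cell was not tested. A group of 13 very abundant genes took 17.7 to 24.0% of counts in 15 libraries, but 34.2% in knockout 2 h clone A, 36.4% in knockout 8 h clone B and 44.0% in knockout 8 h clone C. Some results that rest on these 3 libraries are given with and without them. The other results on knockout cells at 2 and 8 h are given with all libraries only. All 10 stem cell markers were transcribed, and their summed level was 2848 to 2874 CPM in rescued cells at 0 h, 1810 to 1840 at 2 h and 2185 to 2264 at 8 h, against 2712 to 2765, 2077 to 2322 and 2331 to 2798 CPM in knockout cells. The 6 trophectoderm markers summed to 68.1 to 73.3, 385 to 403 and 538 to 573 CPM in rescued cells, and to 102 to 116, 129 to 135 and 388 to 455 CPM in knockout cells. The 6 primitive endoderm markers summed to 8.93 to 68.1 CPM over all libraries, fibroblast markers to at most 10.1 CPM with Lum at 0 in all libraries, and blood markers to at most 3.93 CPM with Hba-a1 at 0. The part of these marker shifts in the results on chaperones and proteasome genes was not tested.

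After 4OHT more of these genes rose than fell, in both kinds of cell. In rescued cells at 2 h, 65 of 116 members were higher than at 0 h and 17 were lower by edgeR's quasi-likelihood test (Benjamini-Hochberg adjusted p under 0.05), where 32.4% of all genes tested were higher and 33.8% lower. Their median log2 fold change was 0.28, beside -0.02 over all genes. In knockout cells 60 were higher and 24 lower (background 31.5% and 35.2%), with a median of 0.24 beside -0.05. The size was mostly modest: in rescued cells 3 members rose by more than 1 on the log2 scale and 7 fell by more than 1. How many are counted as higher depends on the scaling. Scaled by library size alone, the median of all genes moved by -0.16 in rescued and -0.28 in knockout cells, and the counts became 31 higher and 21 lower in rescued cells and 16 higher and 37 lower in knockout cells, while the share of higher genes among all calls went from 48.9% to 31.9% and from 47.2% to 21.2%. Relative to the median of all genes, the members' median was 0.29 higher in both kinds of cell. A change of scaling moves all genes of a library alike, so this gap cannot show whether the rise depends on the scaling.

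Proteasome subunits rose nearly as a block. The 34 genes called standard subunits here (7 alpha, 7 beta, 6 ATPases and 14 non-ATPases) were grouped by symbol. Psmd5, Psmd9 and Psmd10, counted among the non-ATPases, are factors that assemble the cap. Of the 34, 29 were higher and 1 lower in rescued cells at 2 h (median log2 fold change 0.42). In knockout cells 27 were higher and 1 lower (median 0.39). By position in the complex, the counts in rescued cells were 6 of 6 for the ATPases, 12 of 14 for the non-ATPases, 6 of 7 for the beta and 5 of 7 for the alpha subunits. The 6 ATPases ranged from 0.43 to 0.54 in rescued and from 0.33 to 0.71 in knockout cells. Under library size alone, 14 of the 34 were still higher and 1 lower in rescued cells (median 0.27, beside -0.18 for all genes), but 7 higher and 3 lower in knockout cells (median 0.10, beside -0.33). Among all calls, 31.9% in rescued and 21.2% in knockout cells were then higher. Without the 3 libraries rich in abundant genes, 30 were higher and 1 lower in rescued cells and 27 higher and 3 lower in knockout cells.

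Psmc2, an ATPase of the cap, was at 66.1, 68.9 and 69.9 CPM at 0 h, 98.5, 98.3 and 101 CPM at 2 h and 83.5, 79.4 and 88.7 CPM at 8 h in rescued cells. Knockout cells had 69.9, 74.1 and 76.1 CPM at 0 h, 113, 106 and 105 CPM at 2 h and 75.3, 96.7 and 98.7 CPM at 8 h. All 2 h libraries lay above all 0 h libraries in both kinds of cell, with a log2 fold change of 0.54 ± 0.072 (SE), adjusted p = 8.77e-08 in rescued and 0.56 ± 0.07 (SE), adjusted p = 3.38e-08 in knockout cells. Psmd12, a non-ATPase subunit of the lid, went from 86.6, 76.01 and 97.5 CPM at 0 h to 127, 133 and 135 at 2 h and stayed at 125, 128 and 126 CPM at 8 h in rescued cells. Knockout cells had 90.1, 101 and 90.2 CPM at 0 h, 132, 134 and 123 CPM at 2 h and 125, 138 and 143 CPM at 8 h. Neither kind of cell showed overlap between 0 h and later libraries, and the changes at 2 h were 0.60 ± 0.068 (SE), adjusted p = 5.17e-09, and 0.46 ± 0.067 (SE), adjusted p = 4.84e-07. Psmd8, another lid subunit, rose most among the 34 in rescued cells, from 34.5, 35.5 and 38.4 to 61.97, 66.3 and 58.8 CPM (0.78 ± 0.092 (SE), adjusted p = 1.02e-08). Psmd11 (0.72 in rescued, 0.80 in knockout cells), Psma5 (0.74 and 0.61) and Psma3 (0.73 and 0.66) followed it.

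The promoters of Psmd12 and Psmc2 are shown as examples that hold a motif marked below. They were picked for it and do not stand for all subunits that rose. Psmd12 (chr11:107479484-107504362, plus strand, GENCODE M21 on GRCm38) and Psmc2 (chr5:21785283-21803787, plus strand) are printed as the 250 bases before the RefSeq start, from the GRCm38.p6 table, at chr11:107479278-107479527 and chr5:21785025-21785274. Capitals mark an ETS motif (CCGGAAGT, either strand), the kind of site bound by ERK-regulated ETS factors, and in Psmd12 also the letters of an antioxidant response element (TGACNNNGC, either strand), the kind bound by Nfe2l1 and Nfe2l2.
Psmd12: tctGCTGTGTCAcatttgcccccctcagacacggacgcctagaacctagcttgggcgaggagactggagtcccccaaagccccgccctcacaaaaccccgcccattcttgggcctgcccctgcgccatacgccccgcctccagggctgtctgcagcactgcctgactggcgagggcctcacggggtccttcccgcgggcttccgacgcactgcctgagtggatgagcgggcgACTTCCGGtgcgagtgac
Psmc2: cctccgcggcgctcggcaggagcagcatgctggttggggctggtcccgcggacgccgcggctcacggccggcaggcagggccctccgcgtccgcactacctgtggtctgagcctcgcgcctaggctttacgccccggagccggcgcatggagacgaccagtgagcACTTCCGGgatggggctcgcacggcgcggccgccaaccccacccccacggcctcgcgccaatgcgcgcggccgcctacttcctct
Of the 116 members, 96 had a promoter in the table, among them 28 standard proteasome subunits. The ETS letters were in 4 of these 28 (14.3%: Psmc1, Psmc2, Psmd6 and Psmd12), in 9 of the 96 members (9.38%) and in 3.23% of 27025 genes, or 2.88% of 32851 promoters. Most subunits thus lacked them, among them Psmc6, which rose by 0.49 in rescued and 0.71 in knockout cells at 2 h. The antioxidant element was in 5 of the 28 (17.9%), in 15 of the 96 members (15.6%) and in 11.5% of genes (10.2% of promoters). AP-1 letters (TGANTCA) were in 4 members (4.17%) against 7.82% of genes. These shares describe letters in one window.

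Psma7, an alpha subunit, fell at 2 h, whereas 11 of the other 13 subunits of the barrel rose in rescued cells. It was at 54.7, 60.6 and 55.96 CPM in rescued cells at 0 h, fell to 43.8, 49.5 and 46.7 CPM at 2 h and then rose to 74.96, 71.6 and 72.3 CPM at 8 h, all 8 h libraries above all others of that kind. Knockout cells had 58.8, 63.8 and 56.3 CPM at 0 h, 48.4, 43.8 and 49.1 CPM at 2 h and 47.9, 64.2 and 61.2 CPM at 8 h. The 2 h change was -0.29 ± 0.083 (SE), adjusted p = 0.00311 in rescued and -0.34 ± 0.082 (SE), adjusted p = 4.78e-04 in knockout cells. Rescued cells then gained 0.65 between 2 and 8 h. Among alternative caps, Psme4 (PA200, which binds the barrel in place of the standard cap) changed most at 2 h and was back near its start by 8 h in rescued cells: 221, 222 and 249 CPM at 0 h, 432, 418 and 437 CPM at 2 h and 228, 236 and 245 CPM at 8 h. Knockout cells had 211, 236 and 228 CPM at 0 h, 416, 414 and 418 CPM at 2 h and 249, 279 and 298 CPM at 8 h. Its 2 h libraries lay far above those at 0 h in both kinds of cell (0.90 ± 0.061 (SE), adjusted p = 4.56e-14, and 0.89 ± 0.061 (SE), adjusted p = 6.93e-14), and rescued libraries at 8 h overlapped those at 0 h. Psme3, the nuclear cap, rose less (0.20 and 0.24 at 2 h, the former not called with library size alone). Psme2, part of the interferon-induced cap, changed by -0.77 at 8 h in rescued and -0.98 in knockout cells. Its partner Psme1 changed by -0.49 and -0.46, calls lost without rescued 0 h clone B, rescued 8 h clone A or rescued 8 h clone C, and without knockout 0 h clone A or knockout 8 h clone A. Psmb10, the induced beta subunit with enough counts, had -0.49 at 2 h in rescued cells, not called, and fell by 0.77 on the log2 scale in knockout cells, a call lost without knockout 0 h clone B or without knockout 2 h clone B. The tissue-restricted subunits differed in sign: Psma8 of testis changed by -0.84 and Psmb11 of thymus, at low counts (2.002, 2.37 and 3.002 CPM at 0 h), by 1.00 at 2 h in rescued cells.

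Genes outside the symbol rule that build and supply the proteasome moved less evenly than its subunits. Of 22 such genes, 10 were higher and 5 lower at 2 h in rescued cells (background 32.4% and 33.8%), with a median of 0.06 beside -0.02. In knockout cells 11 were higher and 4 lower (background 31.5% and 35.2%), with a median of 0.15 beside -0.05. Pomp, the factor that completes the barrel, rose from 63.8, 61.5 and 63.4 CPM to 139, 139 and 143 CPM in rescued cells, with no overlap and a log2 fold change of 1.15 ± 0.057 (SE), adjusted p = 2.11e-17, and by 0.76 in knockout cells. Its 2 h responses differed by the interaction test (-0.39 ± 0.081 (SE), adjusted p = 8.87e-04). The ubiquitin gene Ubb (0.59) and the protease Ddi2 (0.75), which activates Nfe2l1, also rose at 2 h in rescued cells. Nfe2l1, a transcription factor of proteasome genes, changed by 0.31 and Nfe2l2 by -0.26, whereas the assembly chaperone Psmg2 fell (-0.64).

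**Figure D1:**
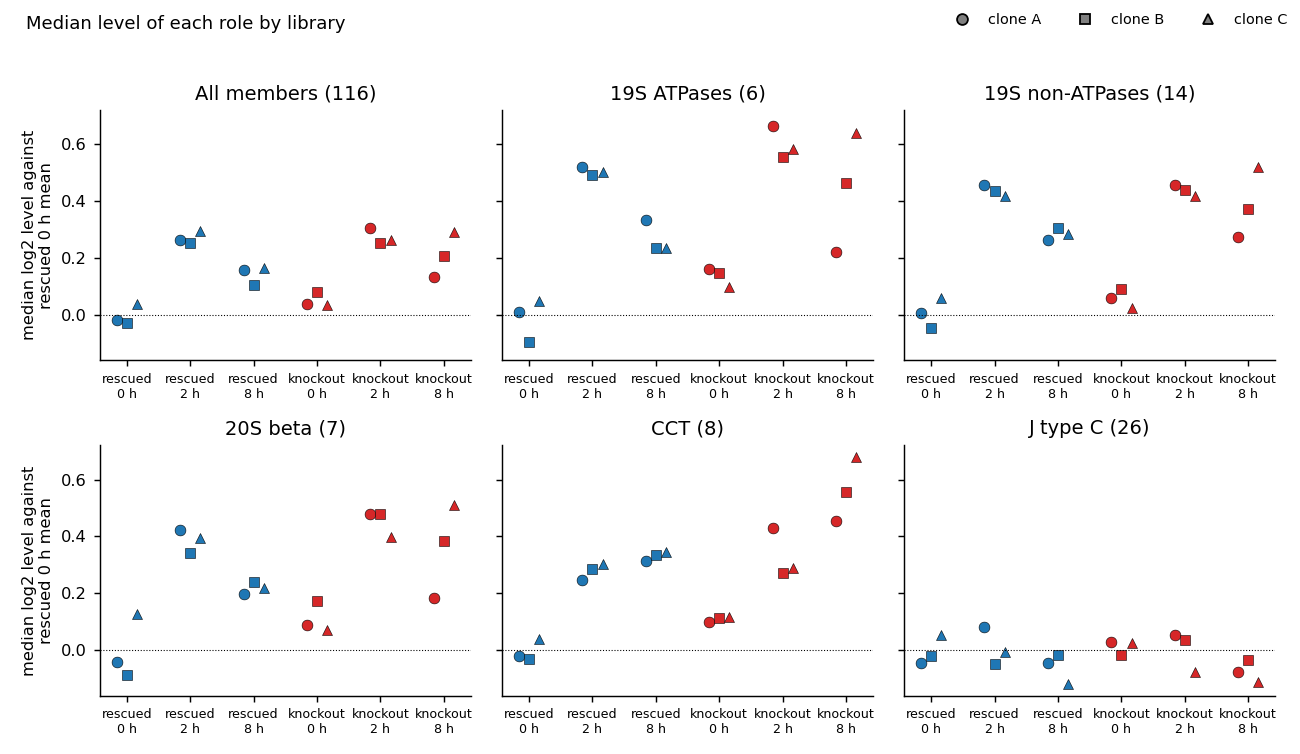
Median log2 level of all 116 members and of 5 role groups in each of the 18 libraries, relative to the mean of the rescued 0 h libraries (vertical axis, TMM-scaled), with groups along the horizontal axis and clones A, B and C as circles, squares and triangles. For CCT the rescued libraries lay at -0.032 to 0.039 at 0 h and 0.246 to 0.304 at 2 h, and the knockout 8 h libraries reached 0.456, 0.557 and 0.681.

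CCT subunits rose with the proteasome and were still higher at 8 h. The 8 genes with a CCT symbol are Cct2, Cct3, Cct4, Cct5, Cct7 and Cct8, and at low counts Cct6b and Cct8l1 (means of 2.07 and 3.21 CPM over rescued 0 and 2 h). In rescued cells 5 were higher and 1 lower at 2 h (median 0.28, background 32.4% and 33.8%). At 8 h 6 were higher and none lower (median 0.33, background 30.7% and 31.3%). In knockout cells 6 were higher and 1 lower at both times (medians 0.25 and 0.50), beside 31.5% and 35.2% of all genes at 2 h and 28.2% and 29.6% at 8 h. Cct2 was at 230.5, 211 and 229.5 CPM at 0 h, 332, 336 and 343 CPM at 2 h and 343, 343 and 338 CPM at 8 h in rescued cells. Knockout cells had 233, 245 and 235 CPM at 0 h, 423, 415 and 401 CPM at 2 h and 344, 391 and 438 CPM at 8 h. Treated libraries lay above untreated ones throughout, with changes at 2 h of 0.59 ± 0.062 (SE), adjusted p = 1.09e-09, and 0.80 ± 0.062 (SE), adjusted p = 1.30e-12. Cct7 (0.47 at 2 h in rescued cells), Cct8 (0.32), Cct4 (0.28) and Cct5 (0.27) were also higher. Cct3 had 0.09, not called, at 2 h and 0.26, called, at 8 h. Cct8l1 had 0.04 and 0.06, neither called. The member that fell, Cct6b, is a testis form of a ring subunit and changed by -1.08 in rescued and -1.57 in knockout cells at 2 h. With library size alone 2 CCT genes were higher and 1 lower at 2 h in rescued cells (median 0.12, beside -0.18 for all genes), and in knockout cells 1 was higher and 1 lower at both times. The share of higher genes among all calls was then 31.9% in rescued cells at 2 h, and 21.2% and 14.7% in knockout cells at 2 and 8 h.

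Among the cytosolic HSP70 machinery, the constitutive chaperone Hspa8 (HSC70, chr9:40800984-40810087, plus strand) had the highest counts of the family and rose. It was at 439, 424 and 436 CPM at 0 h, 601, 661 and 654 CPM at 2 h and 621, 640.1 and 583 CPM at 8 h in rescued cells. Knockout cells had 475, 475 and 448 CPM at 0 h, 848, 789 and 814 CPM at 2 h and 724, 769 and 824 CPM at 8 h. No treated library overlapped an untreated one of its kind, and the 2 h change was 0.56 ± 0.059 (SE), adjusted p = 9.33e-10 in rescued and 0.81 ± 0.059 (SE), adjusted p = 2.66e-13 in knockout cells. Dnaja1, a type A J protein that works with HSC70, was at 143, 138 and 157 CPM at 0 h, 268, 286 and 279.5 CPM at 2 h and 201, 200.5 and 199 CPM at 8 h in rescued cells. Knockout cells had 146, 158 and 162 CPM at 0 h, 324, 356 and 343 CPM at 2 h and 241, 228 and 222 CPM at 8 h. Its libraries at the 3 times did not overlap in either kind of cell, and the 2 h changes were 0.93 ± 0.057 (SE), adjusted p = 4.33e-15, and 1.13 ± 0.056 (SE), adjusted p = 2.81e-17. Dnaja1 overlaps Smu1 on the opposite strand, and whether counting used the strand is not given in the sources used here. Hsph1, the HSP110 exchange factor, was at 117, 114 and 118 CPM at 0 h, 164, 176 and 186 CPM at 2 h and 148, 148 and 143 CPM at 8 h in rescued cells. Knockout cells had 104, 99.7 and 101 CPM at 0 h, 146, 144 and 160.5 CPM at 2 h and 144, 153 and 181 CPM at 8 h. Every treated library exceeded every untreated one of its kind, by 0.59 ± 0.064 (SE), adjusted p = 2.13e-09 at 2 h in rescued and 0.57 ± 0.065 (SE), adjusted p = 6.19e-09 in knockout cells. The related exchange factors Hspa4 (0.53 and 0.56) and Hspa4l (0.75 and 0.68) rose at 2 h too. Hspa9, the mitochondrial HSP70, rose by 0.33 and 0.40.

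The stress-inducible genes moved in different ways. Dnajb1 (HSP40) was at 48.9, 55.5 and 45.03 CPM at 0 h, 70.4, 77.95 and 74.9 CPM at 2 h and 49.01, 49.7 and 45.4 CPM at 8 h in rescued cells. Knockout cells had 53.7, 52.3 and 53.1 CPM at 0 h, 74.04, 79.95 and 79.7 CPM at 2 h and 45.9, 45.6 and 48.6 CPM at 8 h. The 2 h libraries stood above all others, by 0.58 ± 0.067 (SE), adjusted p = 6.93e-09 in rescued and 0.56 ± 0.066 (SE), adjusted p = 1.01e-08 in knockout cells, the latter not called with library size alone. Hspa1a, the inducible HSP70, had 0 to 3 counts in every library and was below the minimum. Its near-identical copy Hspa1b, with which it can share reads, was at 1.75, 1.53 and 1.20 CPM at 0 h, 2.64, 2.002 and 3.11 CPM at 2 h and 1.90, 2.28 and 2.32 CPM at 8 h in rescued cells. Knockout cells had 1.03, 1.61 and 1.70 CPM at 0 h, 2.29, 1.30 and 1.75 CPM at 2 h and 1.21, 0.999 and 2.31 CPM at 8 h. The rescued 2 h call (0.80 ± 0.3 (SE), adjusted p = 0.0208) was lost without rescued 0 h clone C or rescued 2 h clone C, and the floor of 3 counts was 0.196 to 0.629 CPM. Hspb1 (HSP27) was at 29.8, 39.4 and 35.4 CPM at 0 h, 32.8, 32.5 and 33.6 CPM at 2 h and 24.2, 23.4 and 23.8 CPM at 8 h in rescued cells. Knockout cells had 52.5, 44.01 and 47.05 CPM at 0 h, 44.6, 35.7 and 33.5 CPM at 2 h and 24.1, 35.5 and 52.4 CPM at 8 h. It had -0.08 at 2 h, not called, and fell by 0.54 on the log2 scale at 8 h in rescued cells. Hsf1, the heat shock factor, rose by 0.39 at 2 h in rescued cells, and Bag3, a cofactor of HSP70, by 0.71.

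**Figure D2:**
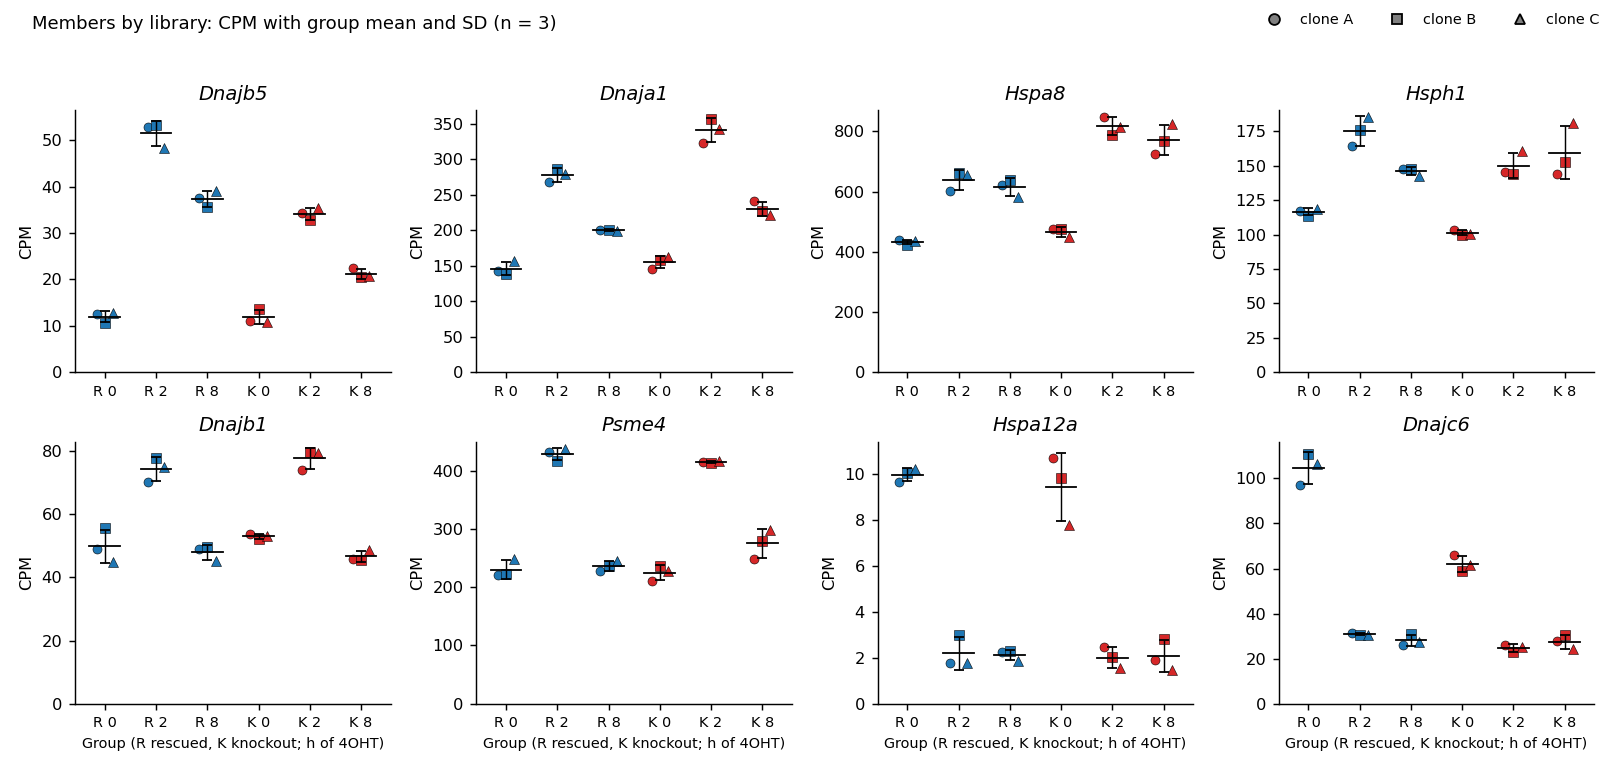
Level in CPM (vertical axes from 0, TMM-scaled) of 8 members in each library, by group along the horizontal axis (R rescued, K knockout, hours of 4OHT), with clones A, B and C as circles, squares and triangles and the mean ± SD of the 3 libraries. Dnajb5 is at most 13.5 CPM without 4OHT and at least 48.3 CPM in rescued cells at 2 h, and Psme4 and Dnajb1 at 2 h stand above their other groups.

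Among HSP90 and the mitochondrial chaperonins, only Hsp90ab1 was called at 2 h. Hsp90aa1, the inducible cytosolic HSP90, was at 508, 520.5 and 559 CPM at 0 h, 471, 464 and 503 CPM at 2 h and 483, 521 and 494 CPM at 8 h in rescued cells. Knockout cells had 516, 497 and 545 CPM at 0 h, 607, 508 and 511 CPM at 2 h and 433, 634 and 747 CPM at 8 h, and the last of these groups spread widest. It was not called at 2 h (-0.14 in rescued and 0.06 in knockout cells). Hsp90ab1, the constitutive form, was called higher at 2 h in rescued cells (0.33 ± 0.11 (SE), adjusted p = 0.0108), a call lost with library size alone and with upper-quartile scaling. It was also called in knockout cells (0.32 ± 0.11 (SE), adjusted p = 0.0134), a call lost without knockout 2 h clone A. Its 8 h changes were 0.20, not called, in rescued and 0.49, called, in knockout cells, where 0 and 8 h libraries overlapped. Hspd1 (HSP60), the barrel of the mitochondrial chaperonin, was at 259, 259.8 and 282 CPM at 0 h, 271, 268 and 267 CPM at 2 h and 344, 338 and 332 CPM at 8 h in rescued cells. Knockout cells had 251, 263 and 258 CPM at 0 h, 259.8, 262 and 259 CPM at 2 h and 273, 315 and 346 CPM at 8 h. It had 0.01 at 2 h and rose by 0.34 ± 0.06 (SE), adjusted p = 1.04e-05 at 8 h in rescued cells, where the 8 h libraries did not overlap the others. Its lid Hspe1 was at 65.6, 60.6 and 69.04 CPM at 0 h, 60.3, 59.9 and 67.2 CPM at 2 h and 73.8, 68.8 and 69.2 CPM at 8 h in rescued cells. Knockout cells had 68.2, 69.04 and 61.9 CPM at 0 h, 58.9, 61.8 and 57.9 CPM at 2 h and 60.2, 71.7 and 80.1 CPM at 8 h. Its log2 fold changes in rescued cells were -0.06 at 2 h and 0.12 at 8 h, neither called. The gene bodies of Hspd1 and Hspe1 overlap head to head on opposite strands.

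A promoter of Hspd1 is shown because it holds the heat shock element (3 units in alternating orientation, GAANNTTC and TTCNNGAA overlapping, either strand), which only 3 of the 96 members (Hspd1, Hspe1 and Dnajb6) and 0.514% of genes (0.466% of promoters) carried. Hspd1 and Hspe1 were not called at 2 h, and Dnajb6 fell (-0.37 ± 0.056 (SE), adjusted p = 8.26e-07 in rescued and -0.35 ± 0.055 (SE), adjusted p = 2.26e-06 in knockout cells). The stretch lies at chr1:55087933-55088092 on the minus strand of GRCm38.p6, the 160 bases before the start of a RefSeq transcript that begins inside the annotated gene (chr1:55077835-55088243), and capitals mark 2 overlapping matches. The 160 bases before the outer RefSeq start, at the annotated gene end (chr1:55088244-55088403), held no match. The printed stretch also lies within the 250 bases before the annotated start of Hspe1 (chr1:55088132, plus strand). Hspd1 and Hspe1 can thus be counted for the same letters and are not separate cases.
Hspd1: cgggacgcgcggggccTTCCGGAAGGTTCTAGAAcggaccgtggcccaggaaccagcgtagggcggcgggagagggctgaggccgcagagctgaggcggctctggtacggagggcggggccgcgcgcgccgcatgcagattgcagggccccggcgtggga
The shorter pairs GAANNTTC and TTCNNGAA were in 12 and 9 of the 96 members (12.5% and 9.38%), against 7.73% and 8.11% of genes, counting those that lie within the full element. Hspd1 and Hspe1 are among the members in both counts.

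Among J proteins were the member that rose most and several that fell most at 2 h in rescued cells. Of 41 J proteins (4 of type A, 11 of type B and 26 of type C), 19 were higher and 10 lower at 2 h in rescued cells (background 32.4% and 33.8%), and 15 higher and 14 lower in knockout cells, close to the 31.5% and 35.2% of all genes. Dnajb5, a type B partner of HSP70 (chr4:42949814-42959425, plus strand), rose from 12.5, 10.6 and 12.8 CPM to 52.8, 53.3 and 48.3 CPM at 2 h and was at 37.5, 35.5 and 38.99 CPM at 8 h in rescued cells. Knockout cells had 11.1, 13.5 and 10.8 CPM at 0 h, 34.4, 32.8 and 35.4 CPM at 2 h and 22.4, 20.5 and 20.8 CPM at 8 h. The untreated libraries of both kinds overlapped, and at 2 and 8 h every knockout library was below every rescued one. The 2 h change was 2.09 ± 0.093 (SE), adjusted p = 1.17e-18 in rescued and 1.52 ± 0.096 (SE), adjusted p = 9.87e-15 in knockout cells. Dnajb2 (0.75 in rescued, 0.58 in knockout cells) and Dnajb12 (0.58 and 0.39), a J protein of the ER membrane, rose as well. Dnajb13, a sperm flagellum J protein, rose by 1.14 and 0.78, and it overlaps Ucp2 on the opposite strand. Dnajc13, which acts on endosomes, rose by 0.64 and 0.37.

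Dnajc6 (auxilin, chr4:101496648-101642799, plus strand), which recruits HSC70 to strip clathrin from vesicles, fell from 96.9, 111 and 106 CPM to 31.6, 30.6 and 30.6 CPM at 2 h and 25.9, 30.99 and 27.3 CPM at 8 h in rescued cells. Knockout cells started lower and had 65.8, 59.05 and 61.4 CPM at 0 h, 26.1, 22.9 and 25.1 CPM at 2 h and 27.7, 30.5 and 24.1 CPM at 8 h. The untreated libraries of both kinds were separate and the 8 h libraries overlapped. The change at 2 h was -1.76 ± 0.076 (SE), adjusted p = 5.41e-19 in rescued and -1.33 ± 0.082 (SE), adjusted p = 5.80e-15 in knockout cells. Hspa12a, a divergent HSP70 (chr19:58795750-58943654, minus strand, overlapping Eno4 on the other strand), was at 9.64, 10.02 and 10.2 CPM at 0 h, 1.76, 3.003 and 1.78 CPM at 2 h and 2.22, 2.28 and 1.86 CPM at 8 h in rescued cells. It was at 10.7, 9.79 and 7.78 CPM at 0 h, 2.44, 2.01 and 1.53 CPM at 2 h and 1.92, 2.83 and 1.47 CPM at 8 h in knockout cells, so untreated and treated libraries were far apart in both (-2.19 and -2.27 at 2 h). Hspb8, a small heat shock protein that works with Bag3, fell from 51.8, 46.5 and 47.1 to 19.4, 21.02 and 20.9 CPM in rescued cells (-1.25), and by 1.10 on the log2 scale in knockout cells. Hspa12b, another divergent HSP70 (-1.33 and -0.96) and Dnajb14 (-0.95 and -0.35) fell too. Dnajc21, a cofactor of ribosome assembly, was at 120.3, 109 and 122 CPM at 0 h, 80.5, 74.8 and 78.9 CPM at 2 h and 66.1, 77.7 and 75.8 CPM at 8 h in rescued cells. Its untreated libraries stood above all treated ones. In knockout cells, at 82.5, 94.1 and 93.6 CPM at 0 h, 78.01, 73.7 and 73.8 CPM at 2 h and 83.3, 85.5 and 99.6 CPM at 8 h, the 0 and 8 h libraries overlapped.

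By 8 h most proteasome and CCT genes were still higher, and fewer J proteins and HSP70 genes were. In rescued cells 51 of 116 members were higher than at 0 h and 16 lower (background 30.7% and 31.3%), with a median of 0.14 beside -0.01. Of the 34 standard proteasome subunits 28 were higher and none lower (median 0.28), whereas among the 41 J proteins 9 were higher and 8 lower, and of 12 HSP70 genes 3 were higher and 3 lower. Library size alone left 10 of the 34 subunits higher and none lower, while the share of higher genes among all calls went from 49.51% to 40.85%. In knockout cells 56 members were higher and 18 lower (28.2% and 29.6%), with a median of 0.19 beside -0.02. Of the 34 subunits, 28 were higher and 1, the assembly factor Psmd10, lower (-0.34, a call lost when any single library of these groups was left out). That count rests on the scaling: with library size alone, which moves the median of all genes by -0.36 and the share of higher genes among calls from 48.8% to 14.7%, 3 members were higher and 44 lower, and of the 34 subunits none was higher and 4 were lower. Without the 3 libraries rich in abundant genes, 17 of the 34 were higher and 1 lower (median 0.20) and 6 of 8 CCT genes higher (median 0.35).

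The step from 2 to 8 h separated brief from lasting responses. In rescued cells 22 members rose and 40 fell between these times (30.7% and 30.2% of all genes), in knockout cells 24 and 30 (29.4% and 27.7%). The counts under library size alone were 17 and 15 in rescued cells, where the share of higher genes among all calls went from 50.4% to 61.2%, and 4 and 29 in knockout cells. Of the 65 members higher at 2 h in rescued cells, 43 were also higher at 8 h, 33 fell between 2 and 8 h and 3 rose further. Of the 33, 13 were no longer called against 0 h and 2, Hspa4l and Dnajc13, were below it. In knockout cells 50 of 60 were also higher at 8 h and 24 fell in between, with Dnajb1 ending below its 0 h level (-0.19). The matching shares among all genes higher at 2 h are not given here. Whether these counts are particular to the members was therefore not tested. Members that fell back in rescued cells from 2 to 8 h included Hspa4l (-1.06), Dnajc13 (-0.90), Hspa13 (-0.89), Psme4 (-0.86) and Dnajb1 (-0.63). Hspa13, an HSP70 of microsomes, shows the shape at low counts: 21.1, 22.1 and 22.8 CPM at 0 h, 42.9, 44.2 and 41.95 CPM at 2 h and 22.6, 23.02 and 24.02 CPM at 8 h in rescued cells. Its 2 h libraries stood alone, and the 8 h libraries overlapped those at 0 h.

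Before 4OHT, few members differed between knockout and rescued cells. At 0 h, 3 were higher in knockout cells and 7 lower, or 2.59% and 6.03% of the 116, where 6.81% and 9.64% of all genes were. Dnajc6 differed most (-0.75 ± 0.069 (SE), adjusted p = 2.44e-09) and Dnajc21 followed (-0.38 ± 0.067 (SE), adjusted p = 1.67e-04), each with every knockout library below every rescued one. Dnajc21 was not called with library size alone. The other 8 calls (Hspb1, Psmb6 and Dnajb4 higher, and Dnajc27, Hspb8, Dnajc1, Hsph1 and Psmd14 lower) lay between -0.28 and 0.46 and each was lost when at least 1 library was left out. None was higher without knockout 0 h clone C, and 1 was without knockout 0 h clone A or rescued 0 h clone A. Among the 34 standard proteasome subunits 1 was higher and 1 lower.

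At 2 h, 12 members were higher in knockout cells and 8 lower (background 10.8% and 12.9%), with a median of 0.02 beside 0.00. Hspa8 was higher (0.35 ± 0.058 (SE), adjusted p = 1.76e-05), as were Dnaja1 (0.30), Cct2 (0.29) and Psmc6 (0.21), and none of these 4 was called with library size alone, under which no member was higher, 5 were lower and the share of higher genes among all calls went from 45.7% to 18.4%. Dnajb5 was lower in knockout cells (-0.59 ± 0.078 (SE), adjusted p = 5.35e-07), with Dnajb13 (-0.82), Dnajc27 (-0.43), Dnajc13 (-0.29) and Hspa13 (-0.26). These stood below rescued cells in all 3 libraries. When single libraries were left out, the number of members called higher was 5 without knockout 2 h clone C or rescued 2 h clone B, 6 without knockout 2 h clone B, and 7 without knockout 2 h clone A or rescued 2 h clone C.

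At 8 h, 27 members were higher in knockout cells and 10 lower (14.5% and 17.1% of all genes), with a median of 0.09 beside 0.00. This count changed with the libraries included: without those 3 libraries 7 were higher, without knockout 8 h clone C alone 14 and without knockout 8 h clone A 37. Leaving out the 3 libraries leaves 1 knockout 8 h library, clone A, which is then assumed to vary like the other groups. With library size alone, which moves the median of all genes by -0.25 and the share of higher genes among all calls from 45.8% to 8.18%, none was higher and 19 were lower. The CCT genes were 6 of 8 higher (median 0.20) with all libraries, and none of 8 without the 3 libraries (median 0.07) or with library size alone (median -0.06), and 1 of 8 without knockout 8 h clone C. Proteasome subunits were 9 of 34 higher and 2 lower, but 1 higher and 4 lower without the 3 libraries and 4 higher without knockout 8 h clone C. Among the lower members, Dnajb5 was lower (-0.81 ± 0.088 (SE), adjusted p = 1.30e-08) under every alternative, from -1.06 to -0.74. Psma7 was lower (-0.37 ± 0.079 (SE), adjusted p = 5.84e-04), its knockout libraries at 47.9, 64.2 and 61.2 CPM and its rescued ones at 74.96, 71.6 and 72.3 CPM, without overlap.

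Of 5 ER chaperones, all but Dnajb9 were lower in knockout cells at 8 h. Hspa5, the main ER HSP70 (chr2:34771970-34777547, plus strand), was at 169, 183 and 173 CPM at 0 h, 174, 165 and 168 CPM at 2 h and 178, 179 and 180.2 CPM at 8 h in rescued cells. Knockout cells had 151, 166 and 164 CPM at 0 h, 176, 166 and 172 CPM at 2 h and 107, 155 and 175 CPM at 8 h. The rescued libraries barely moved, and the knockout 8 h libraries spread over a wide range that lay below every rescued 8 h library. The difference at 8 h was -0.33 ± 0.091 (SE), adjusted p = 0.00594. It was -0.12, not called, without knockout 8 h clone A, the lowest library (adjusted p = 0.119). It was -0.74 without the 3 libraries rich in abundant genes, where clone A alone stands for the group, and -0.61 with library size alone. Hsp90b1, the ER HSP90 (chr10:86690209-86705509, minus strand), was at 296, 296 and 299.7 CPM at 0 h, 267, 275 and 296 CPM at 2 h and 309, 312 and 338 CPM at 8 h in rescued cells. Knockout cells had 283, 324 and 315 CPM at 0 h, 282, 315 and 308 CPM at 2 h and 204, 270.3 and 288 CPM at 8 h. Every knockout library at 8 h was below every rescued one, with a difference of -0.34 ± 0.079 (SE), adjusted p = 0.00117, and the call was kept under every alternative, from -0.64 to -0.20.

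Dnajc3, a J protein of the ER lumen (chr14:118937976-118981697, plus strand), fell after 4OHT in both kinds of cell and rose again by 8 h in rescued cells. It was at 45.1, 45.7 and 50.3 CPM at 0 h, 23.3, 26.4 and 25.3 CPM at 2 h and 36.1, 33.02 and 32.5 CPM at 8 h in rescued cells. Knockout cells had 41.2, 43 and 44.98 CPM at 0 h, 29.9, 26.8 and 28.7 CPM at 2 h and 27.7, 28.6 and 27.04 CPM at 8 h. Rescued cells gained 0.45 ± 0.079 (SE), adjusted p = 1.22e-05 between 2 and 8 h, against -0.03 ± 0.085 (SE), adjusted p = 0.787, not called, in knockout cells, and the difference between these steps was not tested. At 8 h knockout libraries were below rescued ones, with a difference of -0.29 ± 0.08 (SE), adjusted p = 0.0054, a call lost without rescued 8 h clone A (-0.23, adjusted p = 0.0600). Dnajb11, its neighbour in the lumen, was at 64.7, 62.5 and 59.2 CPM at 0 h, 58.8, 57.5 and 62.9 CPM at 2 h and 63.6, 64.9 and 67.8 CPM at 8 h in rescued cells. Knockout cells had 57.7, 61.9 and 60.8 CPM at 0 h, 54.6, 58.3 and 56.4 CPM at 2 h and 52.5, 54.8 and 61.6 CPM at 8 h. The 8 h groups did not overlap, and the difference of -0.23 ± 0.064 (SE), adjusted p = 0.00662 was lost without knockout 8 h clone A (-0.17, adjusted p = 0.0769). Dnajb9 was at 37.05, 39.95 and 32.9 CPM at 0 h, 44.8, 47.5 and 47.7 CPM at 2 h and 32.8, 36.9 and 29.7 CPM at 8 h in rescued cells. Knockout cells had 35.96, 40.5 and 40.7 CPM at 0 h, 49.01, 50.8 and 49.2 CPM at 2 h and 35.3, 32.5 and 37.9 CPM at 8 h. Dnajb9 rose at 2 h (0.35 and 0.35, neither called with library size alone) and at 8 h had 0.09 between the kinds of cell, not called.

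Hspa5, Hsp90b1 and Dnajc3 are the 3 members whose promoter holds the ER stress element (CCAAT, 9 bases of any kind and CCACG, either strand), which 35 of 27025 genes (0.13%) and 0.113% of promoters carried. Their 250 bases before the RefSeq start are printed with the element in capitals, at chr2:34771840-34772089 (plus strand), chr10:86705445-86705694 (minus strand, with 1 match in each orientation) and chr14:118937682-118937931 (plus strand) of GRCm38.p6.
Hspa5: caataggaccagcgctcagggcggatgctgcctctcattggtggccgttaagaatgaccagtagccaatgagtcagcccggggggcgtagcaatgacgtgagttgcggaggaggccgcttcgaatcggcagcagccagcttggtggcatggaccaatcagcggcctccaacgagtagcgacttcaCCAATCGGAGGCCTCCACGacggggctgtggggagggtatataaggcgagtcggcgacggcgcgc
Hsp90b1: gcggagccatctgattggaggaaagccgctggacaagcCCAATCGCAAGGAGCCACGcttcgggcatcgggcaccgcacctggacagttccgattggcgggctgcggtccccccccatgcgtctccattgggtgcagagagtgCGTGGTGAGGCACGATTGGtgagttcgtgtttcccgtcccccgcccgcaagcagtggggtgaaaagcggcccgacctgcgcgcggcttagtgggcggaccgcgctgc
Dnajc3: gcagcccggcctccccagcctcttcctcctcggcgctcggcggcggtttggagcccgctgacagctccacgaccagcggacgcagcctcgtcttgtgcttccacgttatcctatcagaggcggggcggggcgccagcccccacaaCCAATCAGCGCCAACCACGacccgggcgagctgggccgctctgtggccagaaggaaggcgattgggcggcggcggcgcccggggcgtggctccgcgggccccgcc
The letters describe the window and say nothing of whether a factor was bound.

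Some other genes of ER folding were lower there too. Of 17 genes, 6 were lower in knockout cells at 8 h and 1 higher (median -0.19), where 17.1% of all genes were lower and 14.5% higher. Without the 3 libraries rich in abundant genes the median was -0.42, but clone A, the lowest library for Hspa5 and Hsp90b1, then stands alone for knockout 8 h. Without clone A instead, the median was -0.12, with 6 lower and 1 higher. With library size alone, 13 were lower and none higher (median -0.46), but there the median of all genes was itself -0.26, with 28.3% lower and 2.52% higher. The 6 genes were also called lower when any single 8 h library was left out. Xbp1, a transcription factor of the unfolded protein response, was at 39.9, 33.7 and 38.9 CPM at 0 h and 88.7, 84.8 and 91.9 CPM at 8 h in rescued cells, but at 42.97, 51.3 and 45.8 CPM at 0 h and 50.6, 60.8 and 53.03 CPM at 8 h in knockout cells. All rescued 8 h libraries stood above all knockout 8 h libraries, with a difference of -0.70 ± 0.077 (SE), adjusted p = 1.65e-08. Xbp1 had already moved apart at 2 h, by 0.42 in rescued and -0.34 in knockout cells against 0 h, both called. These 2 h responses differed by the interaction test (-0.76 ± 0.12 (SE), adjusted p = 3.14e-05). Manf (-0.46), Atf4 (-0.46), Syvn1 (-0.41), Pdia6 (-0.37) and Hyou1 (-0.34) were the others lower, and Herpud1 (0.41) was higher. Before 4OHT 1 of the 17, Xbp1 (0.32), was higher and 2, Atf4 (-0.39) and Atf6 (-0.21), were lower. Of the 6 genes lower at 8 h, the 8 h response differed by the interaction test for all but Atf4, which had -0.08, not called.

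**Figure D3:**
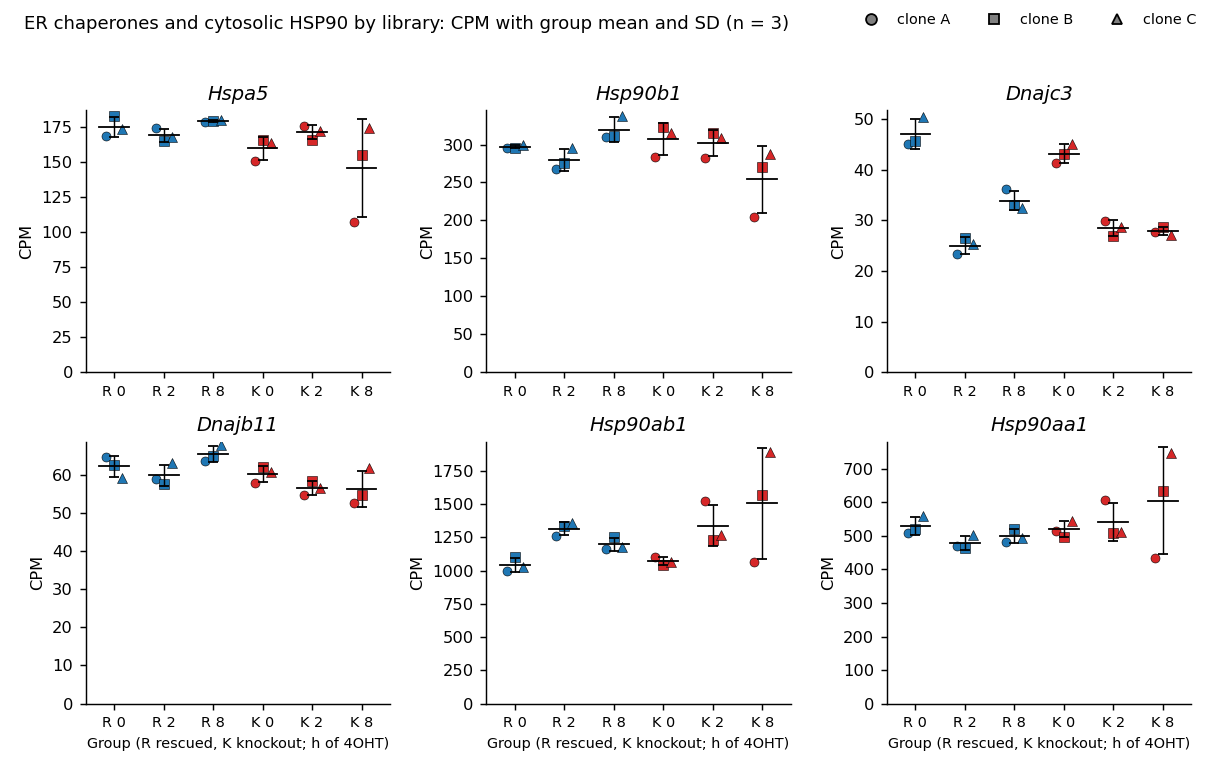
Level in CPM (vertical axes from 0, TMM-scaled) of 4 ER chaperones and of both cytosolic HSP90 genes in each library, by group (R rescued, K knockout, hours of 4OHT), with clones A, B and C as circles, squares and triangles and the mean ± SD of the 3 libraries. Knockout 8 h clone A is the lowest of all 18 libraries for Hspa5 (107 CPM), Hsp90b1 (204 CPM) and Hsp90aa1 (433 CPM), and knockout 8 h clone C the highest for Hsp90ab1 (1889 CPM).

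The cytosolic HSP90 genes also spread widely between the knockout 8 h libraries. Hsp90ab1 was at 1166, 1252 and 1176 CPM in rescued and 1064, 1565 and 1889 CPM in knockout cells at 8 h, and the groups overlapped. Its difference of 0.33 ± 0.11 (SE), adjusted p = 0.0262 became -0.17 without the 3 libraries and 0.01 with library size alone. Hsp90aa1, at 483, 521 and 494 CPM and 433, 634 and 747 CPM, went likewise from 0.27 to -0.20 and -0.04. The high libraries of both genes, knockout 8 h clones B and C, are the ones with 36.4% and 44.0% of counts in abundant genes.

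The responses themselves were much alike with and without Med24. Across the 116 members the 2 h responses of rescued and knockout cells, which share no library, had a Pearson correlation of 0.91 (0.89 over all 14128 genes) and a Spearman correlation of 0.89 (0.87), across genes that are not independent replicates. The sign was the same for 109 members (94.0%, beside 85.9% of all genes). Of the members called higher, 57 were called in both, which is 87.7% of the 65 in rescued and 95% of the 60 in knockout cells, 17 were lower in both, and none was called in opposite directions. At 8 h the Pearson correlation was 0.85 (0.87 over all genes) and the Spearman correlation 0.78 (0.80). The sign was the same for 100 members (86.2%, beside 80.9% of all genes). Of the members, 48 were higher in both (94.1% of the 51 and 85.7% of the 56) and 10 lower in both, again with none opposite. The overlap of calls over all genes is not given here, so whether it is particular to the members was not tested.

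**Figure D4:**
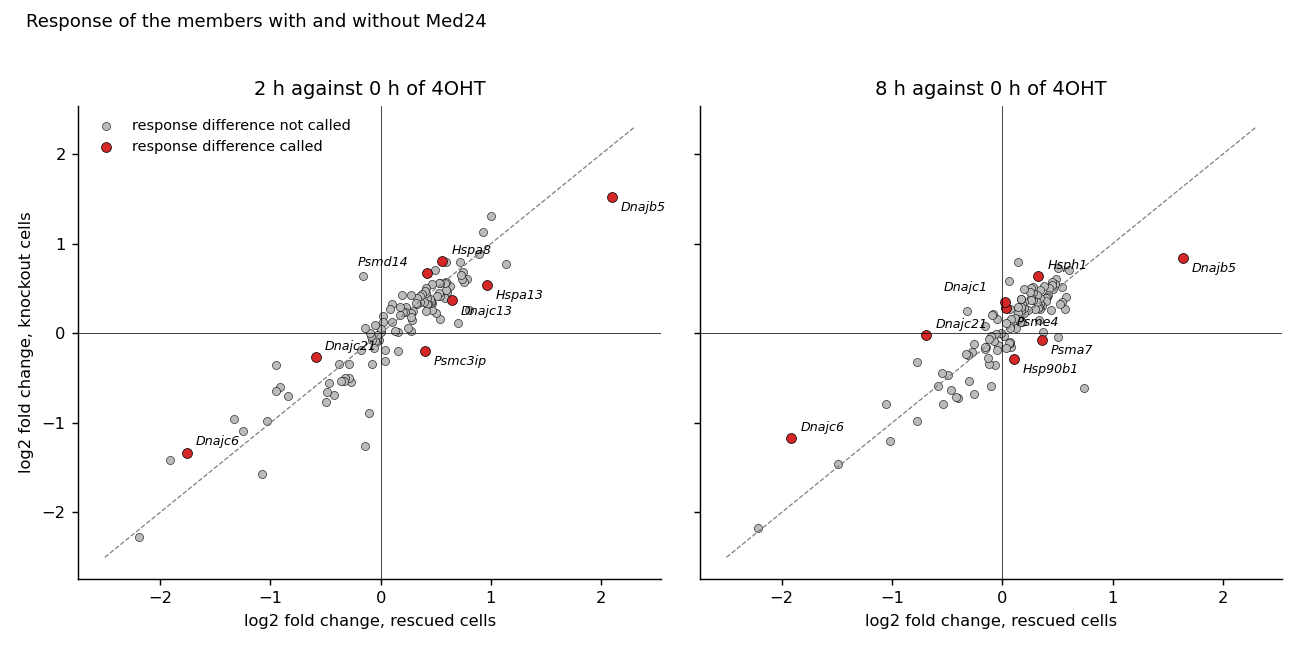
Log2 fold change after 2 h (left) and 8 h (right) of 4OHT in rescued (horizontal axis) and knockout cells (vertical axis) for each of the 116 members, TMM-scaled, with the dashed line marking equal responses. Red points are the 8 members at each time whose responses differed by the interaction test: Dnajb5 lies below the line at both times, and Dnajc6 and Dnajc21 above it.

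Tested directly as an interaction, the response differed for 8 members at each time. At 2 h, 4 responses were higher in knockout cells and 4 lower (6.60% of all genes in each direction), and at 8 h 5 were higher and 3 lower (7.88% and 8.88%). Under library size alone no member was called at 2 h and 6 lower at 8 h, the share of higher genes among all calls going from 50% to 9.68% and from 47.0% to 6.15%. Dnajb5 rose less in knockout cells, with a difference of -0.57 ± 0.14 (SE), adjusted p = 0.00479 at 2 h and -0.79 ± 0.15 (SE), adjusted p = 2.53e-04 at 8 h. The 2 h call was kept in 20 of 21 alternatives, the exception being library size alone, and the 8 h call in all 21. Dnajc6 fell less (0.42 ± 0.11 (SE), adjusted p = 0.0108, and 0.75 ± 0.11 (SE), adjusted p = 2.16e-05), from a lower start, and Dnajc21 likewise (0.32 and 0.67). Hspa13 and Dnajc13 rose less at 2 h (-0.42 and -0.27). Psma7, which was higher at 8 h in rescued cells (0.36), had -0.07, not called, in knockout cells (difference -0.43 ± 0.11 (SE), adjusted p = 0.00734, kept in all 21 alternatives), and Hsp90b1 moved apart by -0.39. Among the proteasome subunits 1 of 34, Psmd14 (0.25), was called at 2 h and 1, Psma7, at 8 h. Hspa8 at 2 h (0.25) was kept in 8 of 21 alternatives and Psme4 at 8 h (0.25) in 10 of 21.

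Gene length showed little relation to the responses. Across the 116 members the Pearson correlation of gene length with the log2 fold change lay between -0.11 and 0.01 in the 4 comparisons with 0 h, given as a description. Of the members, 28 overlap another gene with counts, so that reads of the neighbour cannot be told apart unless counting used the strand. The chaperone partner genes outside the symbol rule (cochaperones of HSP70 and HSP90, prefoldin subunits and heat shock factors) gave similar counts: of 26, 17 were higher and 3 lower at 2 h in rescued cells (median 0.29) and 16 higher and 3 lower in knockout cells (median 0.32), against 7 and 3, and none and 5, with library size alone, under which 16.9% and 36.1%, and 12.3% and 45.5%, of all genes were called. Of 8 genes of mitochondrial protein quality control, 5 were higher and 2 lower in rescued cells at 2 h (background 32.4% and 33.8%) and 2 higher and 3 lower in knockout cells (31.5% and 35.2%).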

How the data were processed

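Nascent RNA of 18 libraries, 6 groups of 3, was measured by sequencing ethynyl uridine-labelled RNA. The authors deposited whole-number counts per gene in 1 table, made with STAR and featureCounts on the build mm10, with DESeq also listed, per the submitters' processing notes. Not given in the sources used here: the annotation release, the strand setting and the treatment of introns. Counts were tested as deposited with edgeR 4.0.16 (R 4.3.3, limma 3.58.1): TMM scaling, filterByExpr (14128 of 25897 genes kept), a quasi-likelihood model with 6 group means, 11 contrasts, and Benjamini-Hochberg adjustment over all genes tested. A member is called at an adjusted p under 0.05. Totals of 6691177 to 14541145 counts set the precision, and 3 counts equal 0.196 to 0.629 CPM. Gene positions come from GENCODE M21 and promoters from the RefSeq table of GRCm38.p6.

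Tested on simulated data for rescued 2 h against rescued 0 h over 14128 genes, the fit recovered 44% of genes changed 1.25-fold, 74% at 1.5-fold, 82% at 2-fold and 98% at 4-fold (50 genes each) and called 17 unchanged genes. All remaining genes were simulated without change, whereas 32.4% were called higher and 33.8% lower in the data. The recovered shares therefore need not hold for the data. The members and gene lists were chosen with earlier results of these data known. Named were, by rule, the heat shock and ER sets, the 8 highest and 8 lowest called members of a comparison with a mean of at least 5 CPM (5 and 5 for interactions) and the 2 with the smallest p in each role; of those, the ones shown are the members whose role or robustness bears on a comparison. Genes of the related lists were named after their values were seen. DESeq2 1.42.0, other scalings, other filters, a clone block, only the groups compared and leaving out libraries were alternatives. No library was left out of the main values, and no 2 replicates agreed within sampling noise (lowest chi-square per degree of freedom 1.52).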

Additional observations from a re-analysis of the deposited data

Results flagged for a closer look

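The responses of 8 members at each time differed between knockout and rescued cells by the interaction test of edgeR's quasi-likelihood model (adjusted p under 0.05, knockout minus rescued log2 fold change, relative to other genes). At 2 h the differences were 0.42 for Dnajc6, 0.32 for Dnajc21, 0.25 for Psmd14, 0.25 for Hspa8, -0.27 for Dnajc13, -0.42 for Hspa13, -0.57 for Dnajb5 and -0.60 for Psmc3ip. At 8 h they were 0.75 for Dnajc6, 0.67 for Dnajc21, 0.33 for Dnajc1, 0.31 for Hsph1, 0.25 for Psme4, -0.39 for Hsp90b1, -0.43 for Psma7 and -0.79 for Dnajb5.

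Dnajb5, Dnajc6 and Dnajc21 were called at both times. For Dnajc6 and Dnajc21 the untreated groups themselves differed, and the knockout values at 8 h overlapped the rescued ones for Dnajc6 and lay above them for Dnajc21. For Dnajb5 the untreated groups overlapped and the treated groups did not. Of 21 alternatives the call was kept in 21 for Dnajb5 and Psma7 at 8 h, in 20 for Dnajb5 at 2 h, for Dnajc6 at both times, for Dnajc13 at 2 h and for Dnajc21 and Hsp90b1 at 8 h, and in 8 to 18 for the other 8.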

How the results depend on the processing

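The median of the members lay above the median of all genes in the comparisons with 0 h, a gap that scaling hardly changes because it moves all genes alike. The counts moved. With library size alone, members called higher numbered 31 and 22 in rescued cells at 2 and 8 h, 16, 3 and 4 in knockout cells at 2 h, at 8 h and from 2 to 8 h, 1, 0 and 0 between the kinds of cell at 0, 2 and 8 h, and 0 and 0 for the response differences at 2 and 8 h. Members lower numbered 15 in rescued cells from 2 to 8 h, 37 and 44 in knockout cells at 2 and 8 h, 1, 5 and 19 between the kinds of cell, and 0 and 6 for the response differences. Without the 3 libraries rich in abundant genes, 12 were higher in knockout cells from 2 to 8 h, 12 and 7 between the kinds of cell at 0 and 8 h, and 9 and 3 for the response differences, with 10 lower at 8 h. Upper-quartile scaling gave 8 higher and 4 lower at 0 h between the kinds of cell and 28 lower in knockout cells at 8 h. Only the groups compared gave 11 and 16 higher between the kinds of cell at 0 and 8 h and 8 for the 2 h response difference. DESeq2 gave 6 lower at 8 h between the kinds of cell and 2 lower for the 2 h response difference, RLE 7 higher for the latter, and no filter 7 higher at 0 h between the kinds of cell. The filter of 10 counts in 3 libraries moved none of the 22 counts. The cause was not tested.

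Leaving out 1 library gave 0 to 3 members higher and 3 to 6 lower at 0 h between the kinds of cell, 5 to 10 higher at 2 h, and 14 to 37 higher and 6 to 10 lower at 8 h. It gave 1 to 5 higher and 2 to 5 lower for the 2 h response difference, 3 to 16 higher and 2 to 6 lower for that at 8 h (16 without knockout 8 h clone A), and 11 to 19 lower in knockout cells at 8 h.

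Values that changed sign with library size alone were, between the kinds of cell at 8 h, Cct8 -0.033, Dnaja1 -0.052, Dnajc8 -0.023, Hsp90aa1 -0.044, Psmb6 -0.017, Psmc3 -0.030, Psmc5 -0.012, Psmd3 -0.001, Psme3 -0.008 and Psme4 -0.059. In knockout cells they were Hspbp1 -0.090 and Hspd1 -0.268 at 2 h and Hspd1 -0.118, Hspe1 -0.308, Psma3 -0.003, Psma6 -0.012, Psma8 -0.161, Psmb2 -0.068, Psmb3 -0.093 and Psmc6 -0.043 at 8 h, and for the 8 h response difference Psme4 -0.057. Without the 3 libraries they were Cct8 -0.029, Hsp90aa1 -0.203, Hsp90ab1 -0.169, Psmb6 -0.040, Psmc3 -0.025 and Psmd2 -0.087 between the kinds of cell, Hsp90aa1 -0.247 in knockout cells at 8 h, Hsp90aa1 -0.241 and Hsp90ab1 -0.239 from 2 to 8 h, and Hspb1 -0.440 for the response difference.

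Libraries with the same clone letter did not deviate together enough to pair them (mean correlation 0.016 over 45 pairs, from -0.10 to 0.083), although 15 of 18 correlated best with their own letter, a hint from the data and not the design. With the clone letter as a replicate block, 5 members were higher at 0 h between the kinds of cell against 3 without, and no other count of members moved by over 1.5 times. At these depths members under about 5 CPM, such as Hspa1b and Dnajc25, are measured poorly.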
